A study of Mus musculus with 8 samples.

Results

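The 37 genes of the mouse mitochondrial genome are described here across 8 RNA-seq libraries of spleen CD4+ T cells. They were taken as every listed gene whose name starts with mt-, which gave 37 of the 54532 genes in the deposited table. By the annotated biotype 13 are mRNA genes, 2 are rRNA genes and 22 are tRNA genes. All 37 start and end positions equalled those of GENCODE release 21 for the mouse, on build GRCm38. The cells were wild-type in both groups, 4 libraries from cells given dimethyl succinate and 4 from cells given vehicle, with 3 days of treatment. Dimethyl succinate is a methyl ester of succinate, a substrate of the citric acid cycle that complex II of the respiratory chain oxidises. The labels give no age, sex or strain of the mice, no dose and no statement on whether libraries came from separate animals or cultures. The p-values below therefore reflect no more than the variation among these libraries, and part or all of that may be technical.

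The mitochondrial genome is a small circle present in many copies per cell. Both of its strands are transcribed as long precursors by the single-subunit RNA polymerase POLRMT with its partner TFAM. Most mRNA and rRNA genes are separated by tRNA genes, and cutting at the tRNAs releases the RNAs between them, so that the genes of a strand share a precursor. The mRNAs encode subunits of respiratory complexes I, III, IV and V, while complex II is encoded in the nucleus alone. The rRNAs form the mitochondrial ribosome, and the tRNAs read the mitochondrial genetic code. T cells raise their mitochondrial mass and respiration when they are activated. In a bulk library, fewer mitochondria per cell, fewer transcripts per mitochondrion and a different mix of cells cannot be told apart.

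Library totals ran from 13407295 to 16688854 counts, and levels are given as CPM, counts scaled to the library total after adjustment for composition. The 7 CD4+ T cell markers examined (Cd4, Cd3e, Cd3d, Cd3g, Trac, Cd5 and Cd28) summed to 2333 to 2408 CPM in the dimethyl succinate libraries, against 2325 to 2373 CPM in vehicle replicates 1 to 3 and 1837 CPM in vehicle replicate 4. Summed markers of CD8+ T, B, NK, myeloid, erythroid and platelet cells stayed below 10 CPM each in every library. Vehicle replicate 4 stood apart: its counts differed from each other vehicle library by a chi-square of 35.0 to 39.8 per gene, against 2.46 to 3.62 between the other vehicle libraries. Among the dimethyl succinate libraries, replicate 1 differed from each other one by 6.47 to 7.92 per gene, against 2.11 to 4.88 between replicates 2 to 4. No pair of libraries of the same group agreed within sampling noise, and pairs across groups were not compared. Because vehicle replicate 4 also stood apart in the mitochondrial genes, comparisons over these genes are given with it and without it. For nuclear genes some are given with all libraries alone.

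Mitochondrial RNA took up a similar share of the counts in 7 of the 8 libraries and a much smaller one in vehicle replicate 4. The share was 1.23%, 1.43%, 1.40% and 1.16% in dimethyl succinate replicates 1 to 4. It was 1.48%, 1.27%, 1.47% and 0.252% in vehicle replicates 1 to 4. The dimethyl succinate values lay inside the range of the vehicle values, whose lowest library set the direction of the difference. The mean was 1.304% ± 0.129 in dimethyl succinate libraries and 1.12% ± 0.584 in vehicle libraries (SD, n = 4 each), a difference of 0.187 percentage points. Without vehicle replicate 4 the vehicle mean was 1.41% ± 0.116 (SD, n = 3) and the difference was -0.101 percentage points, which was smaller than the SD of either group.

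**Figure D1:**
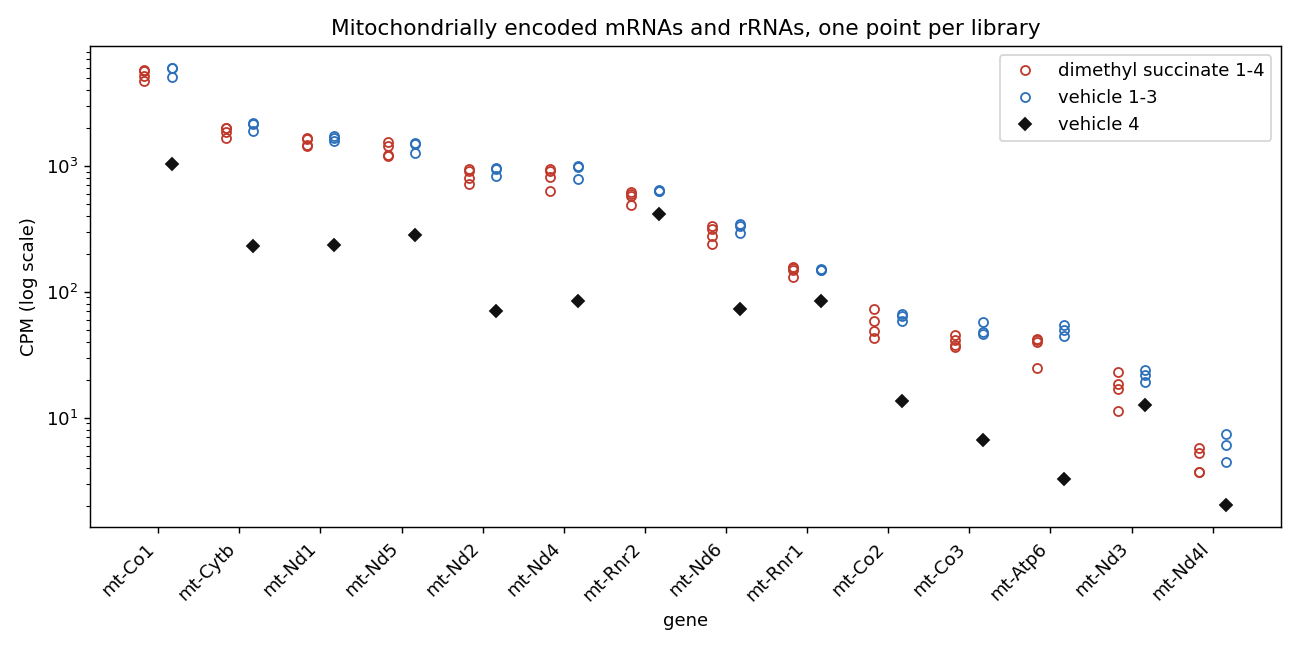
CPM (log scale) of 12 mitochondrial mRNAs and the 2 rRNAs, one point per library, with dimethyl succinate libraries to the left and vehicle libraries to the right of each gene. Vehicle replicate 4 (black diamonds) lies below all other libraries for each gene shown except mt-Nd3, while the open circles of both groups lie close together.

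No mitochondrial gene was called changed by dimethyl succinate. Of the 37 genes, 27 passed the low-count filter: 12 mRNAs, both rRNAs and 13 tRNAs. At an adjusted p under 0.05 by edgeR's quasi-likelihood test, 0 of the 27 were called, beside 0% of the 13981 genes tested. At an unadjusted p under 0.05 the count was also 0 of 27, against 5.76% of all genes tested, and no tested mitochondrial gene had groups that did not overlap, against 4.82% of all genes. DESeq2 likewise called 0 of the 27, with a lowest adjusted p of 0.993. Log2 fold changes of dimethyl succinate over vehicle had a median of 0.16 and ran from -0.46 for mt-Tl2 to 0.56 for mt-Te. They lay above 0 for 18 of the 27 genes, against 49.6% of all genes. Standard errors ran from 0.13 for mt-Rnr2 to 0.69 for mt-Nd2.

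Without vehicle replicate 4 the same 27 genes were tested and 22 lay below 0, against 50.2% of all genes. All 12 tested mRNAs were among the 22, with log2 fold changes of -0.42 for mt-Atp6 to -0.08 for mt-Nd5 and a median of -0.16. These mRNAs are cut from shared precursors, so their common direction is not 12 separate observations. Again 0 of the 27 genes were called by edgeR at an adjusted p under 0.05, while 0.197% of the 14232 genes tested were. At an unadjusted p under 0.05, 3 of the 27 passed, against 8.54% of all genes, and all 3 were lower, against 4.15% of all genes lower. Those 3 were mt-Co3, mt-Rnr2 and mt-Cytb. Groups did not overlap for 4 of the 27, all lower with dimethyl succinate, against 4.68% of all genes, and these were mt-Co3, mt-Atp6, mt-Rnr2 and mt-Tn.

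**Figure D2:**
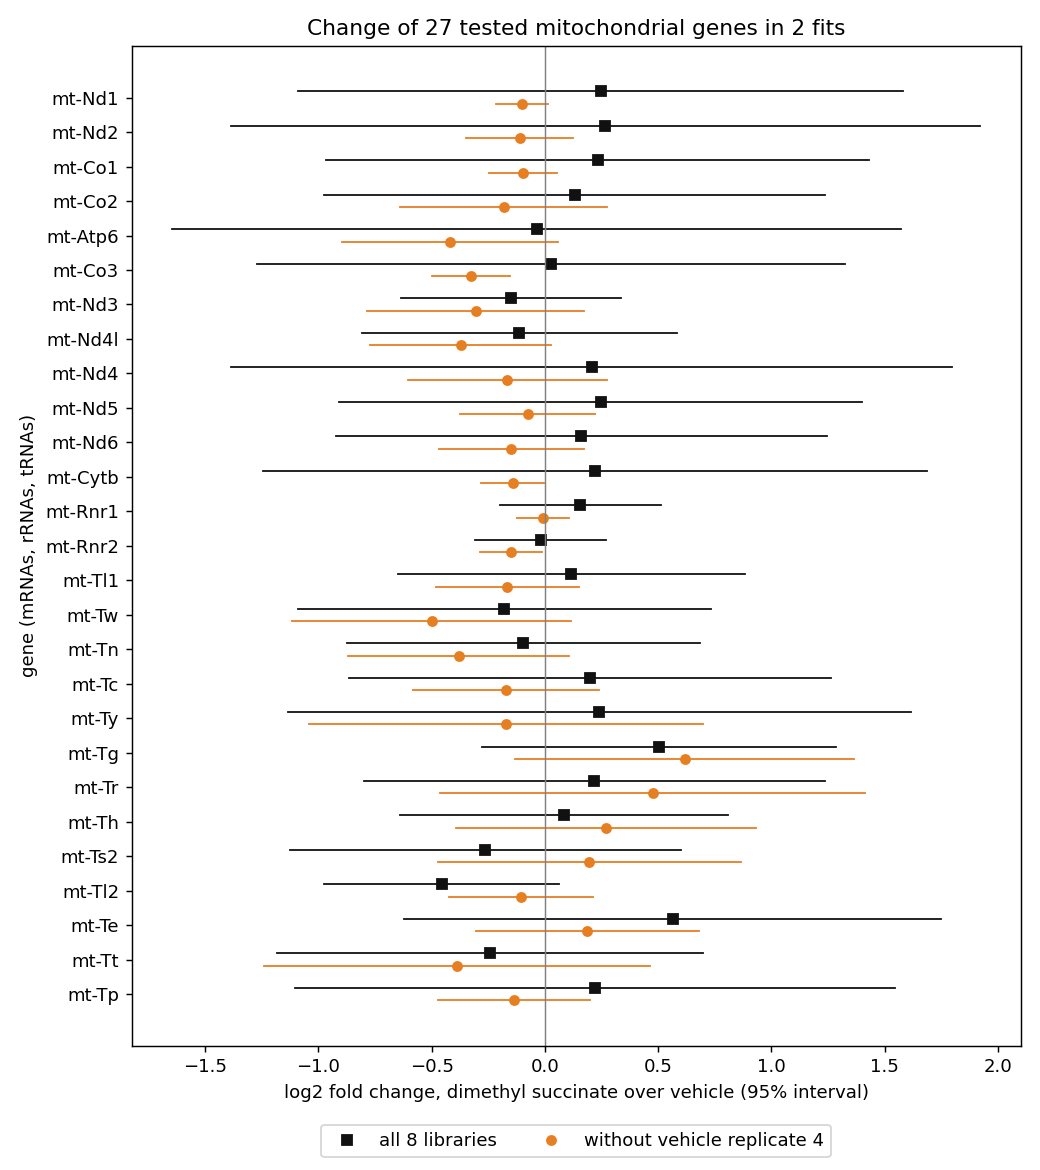
Log2 fold change of dimethyl succinate over vehicle with its 95% interval for the 27 tested mitochondrial genes, from all 8 libraries (black squares) and without vehicle replicate 4 (orange circles). With all 8 libraries every interval spans 0, and without vehicle replicate 4 all 12 mRNAs lie below 0 with shorter intervals.

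Complex IV, cytochrome c oxidase, passes electrons to oxygen, and its 3 catalytic core subunits are mitochondrially encoded. mt-Co1, which carries the heme and copper site where oxygen is reduced, had 5202, 5744, 5619.9 and 4692 CPM in dimethyl succinate replicates 1 to 4, against 5996, 5112, 5939 and 1036 CPM in vehicle replicates 1 to 4. Apart from vehicle replicate 4 the groups overlapped, and the log2 fold change of 0.23 (SE 0.50, edgeR adjusted p = 0.925) was -0.10 (SE 0.07, adjusted p = 0.753) without that library. It was the most abundant mitochondrial mRNA, with 40.2% to 42.2% of all mitochondrial counts in the 7 other libraries and 40.1% in vehicle replicate 4. mt-Co2, the subunit that receives electrons from cytochrome c, averaged 55.6 ± 12.8 CPM in dimethyl succinate libraries and 50.8 ± 24.9 CPM in vehicle libraries (SD, n = 4 each), or 63.1 ± 3.73 CPM without vehicle replicate 4 (n = 3). Its log2 fold change of 0.13 changed sign to -0.18 without that library, and neither passed the test.

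mt-Co3, the third core subunit, had the lowest p of the mitochondrial genes once vehicle replicate 4 was left out. It stood at 36.5, 41.2, 37.99 and 45.6 CPM in dimethyl succinate replicates 1 to 4, against 57.3, 47.9, 46.4 and 6.67 CPM in vehicle replicates 1 to 4. Each dimethyl succinate library lay below vehicle replicates 1 to 3 and above vehicle replicate 4. The log2 fold change was 0.03 (95% interval -1.27 to 1.32) with all libraries and -0.33 (-0.50 to -0.15) without vehicle replicate 4. The second had an unadjusted p of 0.000593 and an adjusted p of 0.117 by edgeR, which did not pass the threshold.

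Complex I, NADH dehydrogenase, takes electrons from NADH and has 7 mitochondrially encoded subunits in its proton-pumping membrane arm. With all 8 libraries 5 of the 7 log2 fold changes were above 0 and 2 below, and without vehicle replicate 4 all 7 were below 0, with none at an unadjusted p under 0.05. mt-Nd1, at the junction with the arm that binds NADH, had 1424, 1659, 1639 and 1452 CPM in dimethyl succinate replicates 1 to 4, against 1675, 1559, 1736 and 236 CPM in vehicle replicates 1 to 4. Its log2 fold change was 0.25 with all libraries and -0.10 (SE 0.06, unadjusted p = 0.0785 by edgeR) without vehicle replicate 4. The subunits mt-Nd2, mt-Nd4 and mt-Nd5 are related to bacterial antiporters and form proton channels. They averaged 846 ± 103, 822 ± 139 and 1348 ± 174 CPM in dimethyl succinate libraries, against 914 ± 74.0, 923 ± 119 and 1422 ± 147 CPM in vehicle replicates 1 to 3 (SD, n = 4 and n = 3). In vehicle replicate 4 they stood at 70.0, 84.2 and 284 CPM. Differences between the groups without vehicle replicate 4 were smaller than the SD of the dimethyl succinate libraries for mt-Nd2, mt-Nd4 and mt-Nd5.

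The small membrane subunits mt-Nd3 and mt-Nd4l were counted far less. mt-Nd3 averaged 17.4 ± 4.75 CPM in dimethyl succinate libraries and 21.6 ± 2.25 CPM in vehicle replicates 1 to 3 (SD, n = 4 and n = 3), with 12.5 CPM in vehicle replicate 4. mt-Nd4l averaged 4.59 ± 1.05 CPM in dimethyl succinate libraries and 5.99 ± 1.51 CPM in vehicle replicates 1 to 3, with 2.01 CPM in vehicle replicate 4. mt-Nd6 is the only mRNA whose gene is on the light strand, and in human cells its RNA is known to lack the poly(A) tail of the others. It had 239.9, 335, 317 and 277 CPM in dimethyl succinate replicates 1 to 4, against 345, 292, 335 and 73.2 CPM in vehicle replicates 1 to 4. The groups overlapped for mt-Nd6, and its log2 fold change was 0.16 with all libraries and -0.15 without vehicle replicate 4. The mt-Nd6 gene overlaps the end of mt-Nd5 on the other strand by 14 bases. Whether counting used strand is not given in the sources used here, so reads of a light-strand gene and of the precursor from the other strand cannot be told apart.

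Cytochrome b, encoded by mt-Cytb, is the one mitochondrially encoded subunit of complex III, which passes electrons from ubiquinol to cytochrome c. mt-Cytb had 1852, 1983, 1993 and 1650.2 CPM in dimethyl succinate replicates 1 to 4, against 2127, 1872, 2193 and 232 CPM in vehicle replicates 1 to 4. Without vehicle replicate 4 the ranges still overlapped, through vehicle replicate 2. Its log2 fold change was 0.22 (95% interval -1.25 to 1.68) with all libraries and -0.14 (-0.28 to -0.0039) without vehicle replicate 4, at an unadjusted p of 0.0446 and an adjusted p of 0.571 by edgeR.

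Complex V, the ATP synthase, has 2 mitochondrially encoded subunits, and the genes of both overlap. The 43 shared bases, chrM:7927-7969 on the plus strand, hold the end of mt-Atp8 and the start of mt-Atp6, whose start codon is in capitals, as given in the GENCODE transcripts of GRCm38.
mt-Atp8 and mt-Atp6 overlap: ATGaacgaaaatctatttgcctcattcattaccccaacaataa
A read inside this stretch belongs to both genes. mt-Atp8, a short subunit of the membrane part, had 4, 6, 4 and 5 counts in dimethyl succinate replicates 1 to 4, against 4, 6, 11 and 1 counts in vehicle replicates 1 to 4, and did not pass the low-count filter. mt-Atp6, which lines the proton path, had 41.9, 41.2, 40.0 and 24.9 CPM in dimethyl succinate replicates 1 to 4, against 54.9, 44.4, 49.4 and 3.26 CPM in vehicle replicates 1 to 4. Every dimethyl succinate library lay below vehicle replicates 1 to 3, and dimethyl succinate replicate 4 lay well below the other dimethyl succinate libraries. The log2 fold change was -0.04 with all libraries and -0.42 (95% interval -0.89 to 0.06, edgeR adjusted p = 0.636) without vehicle replicate 4.

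The ends of 3 of the 13 mRNA genes carry only the first base of a stop codon, which is completed by the poly(A) tail. They are mt-Co3, mt-Nd4 and mt-Cytb, shown with the incomplete stop in capitals because their stop codons depend on that tail. The stretches are chrM:9373-9390, chrM:11527-11544 and chrM:15271-15288 on the plus strand of GRCm38.
mt-Co3 end: tttattgatgaggatctT
mt-Nd4 end: ttacaggcctgacaataT
mt-Cytb end: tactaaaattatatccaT
The labels name an mRNA-seq library kit and do not say whether RNA was chosen by its poly(A) tail. In vehicle replicate 4 these 3 mRNAs stood at 0.132, 0.0913 and 0.112 of the mean of the other vehicle libraries. Of the other tested mRNAs, mt-Atp6 and mt-Nd2 stood lower, at 0.0659 and 0.0766, and the rest stood at 0.142 to 0.579. Whether the tail has a part in these values was not tested.

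The mitochondrial rRNAs were less reduced in vehicle replicate 4 than 11 of the 12 tested mRNAs. mt-Rnr1, the RNA of the small ribosomal subunit, had 131, 158, 149.5 and 155 CPM in dimethyl succinate replicates 1 to 4, against 148, 152, 148 and 84.4 CPM in vehicle replicates 1 to 4. mt-Rnr2, the RNA of the large subunit, had 484, 624, 600.0 and 574 CPM in dimethyl succinate replicates 1 to 4, against 639, 628, 632 and 413 CPM in vehicle replicates 1 to 4. The values of both groups overlapped for mt-Rnr1 with and without vehicle replicate 4, while for mt-Rnr2 all dimethyl succinate libraries lay below vehicle replicates 1 to 3. Without vehicle replicate 4 the log2 fold change was -0.01 (SE 0.06) for mt-Rnr1. It was -0.15 (SE 0.06, unadjusted p = 0.0316, adjusted p = 0.524 by edgeR) for mt-Rnr2.

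The ratio of the counts of mt-Rnr2 to those of mt-Rnr1 separated the groups. It was 3.70, 3.95, 4.01 and 3.70 in dimethyl succinate replicates 1 to 4, against 4.33, 4.13, 4.28 and 4.89 in vehicle replicates 1 to 4. Its mean was 3.84 ± 0.166 in dimethyl succinate libraries and 4.40 ± 0.332 in vehicle libraries (SD, n = 4 each), or 4.24 ± 0.105 without vehicle replicate 4 (n = 3). The ratio was chosen after its values were seen and is given with no test. Nuclear genes annotated as rRNA made up 0.0394% to 0.0575% of counts in dimethyl succinate libraries, against 0.0199% to 0.0205% in vehicle replicates 1 to 3 and 0.0388% in vehicle replicate 4. By this share vehicle replicate 4 lay near the dimethyl succinate libraries, while by the ratio it was the farthest from them.

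The tRNAs were a minor part of the mitochondrial counts, 0.387% to 0.479% in the 7 other libraries. Each carries 1 amino acid to the mitochondrial ribosome, and mature tRNAs are short and structured. Of the 22 tRNA genes, 9 did not pass the low-count filter: mt-Tf and mt-Td had no count in any library, and mt-Tv, mt-Ti, mt-Tq, mt-Tm, mt-Ta, mt-Ts1 and mt-Tk had 3 to 23 counts over all 8 libraries together. A count of 0 in a library allows up to 3 counts, and such limits cover counting error only. The 13 tested tRNA genes had 95 to 2133 counts over all libraries. With all libraries 8 of the 13 log2 fold changes lay above 0, and without vehicle replicate 4 only 5 did, with none at an unadjusted p under 0.05 in either fit.

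mt-Tp, the proline tRNA, was the most counted, with 18.8, 21.2, 20.6 and 14.99 CPM in dimethyl succinate replicates 1 to 4, against 24.3, 15.4, 22.9 and 2.36 CPM in vehicle replicates 1 to 4. mt-Tl1, a leucine tRNA that follows mt-Rnr2, had 12.8, 12.6, 12.2 and 7.27 CPM in dimethyl succinate replicates 1 to 4, against 12.8, 11.6, 13.4 and 3.61 CPM in vehicle replicates 1 to 4. The groups overlapped for mt-Tp and mt-Tl1. The largest log2 fold change, 0.56 (SE 0.53, edgeR adjusted p = 0.823) for the glutamate tRNA mt-Te, was 0.19 without vehicle replicate 4, where mt-Te had 5 counts against 45 to 116 in the 7 others. mt-Tn, the asparagine tRNA, had 1.36, 3.04, 2.81 and 2.87 CPM in dimethyl succinate replicates 1 to 4, against 3.24, 3.11, 3.58 and 0.903 CPM in vehicle replicates 1 to 4. For mt-Tn every dimethyl succinate library lay below vehicle replicates 1 to 3 in CPM, at a log2 fold change of -0.38 (SE 0.24) without vehicle replicate 4. Its counts were 20, 51, 46 and 45 in dimethyl succinate replicates 1 to 4, against 46, 49, 48 and 13 in vehicle replicates 1 to 4. Dimethyl succinate replicate 2, the library with the highest total, had the most counts, so the separation held only after scaling. Without vehicle replicate 4 the values above 0 were 0.62 for the glycine tRNA mt-Tg, 0.48 for the arginine tRNA mt-Tr, 0.27 for mt-Th, 0.20 for mt-Ts2 and 0.19 for mt-Te. The tested tRNA genes mt-Tw for tryptophan, mt-Tc for cysteine, mt-Ty for tyrosine and mt-Tt for threonine, lay between -0.50 and -0.17 in that fit. None of the 13 passed the test.

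Within vehicle replicate 4 the mitochondrial genes were reduced unequally, which changed the make-up of its mitochondrial RNA. In that library mRNAs made up 79.5% of mitochondrial counts, rRNAs 19.3% and tRNAs 1.22%. In the 7 other libraries mRNAs made up 93.3% to 94.6%, rRNAs 4.99% to 6.31% and tRNAs at most 0.479%. Among the mRNAs, complex I took 29.5% of mitochondrial counts in vehicle replicate 4 against 36.4% to 38.5% elsewhere. Complex III took 8.99% against 14.0% to 15.01%, and complex V 0.129% against 0.219% to 0.377%. Complex IV was nearly level, at 40.9% against 41.1% to 42.9%, and nearly all of it was mt-Co1 at 40.1%. Its other genes went both ways, mt-Co2 at 0.530% against 0.374% to 0.524% and mt-Co3 at 0.258% against 0.275% to 0.395%. Within complex I the shares of mt-Nd1, mt-Nd2 and mt-Nd4 lay below those of the 7 other libraries. Those of mt-Nd3, mt-Nd4l, mt-Nd5 and mt-Nd6 lay above. Among the 7 other libraries the shares of the 4 dimethyl succinate and 3 vehicle libraries overlapped for mRNAs, rRNAs, tRNAs and each complex. For complex V they did so barely, with dimethyl succinate replicate 1 at 0.3422% and vehicle replicate 3 at 0.3419%. Its mean share was 0.286% ± 0.051 in dimethyl succinate libraries and 0.357% ± 0.018 in vehicle replicates 1 to 3 (SD, n = 4 and n = 3).

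**Figure D3:**
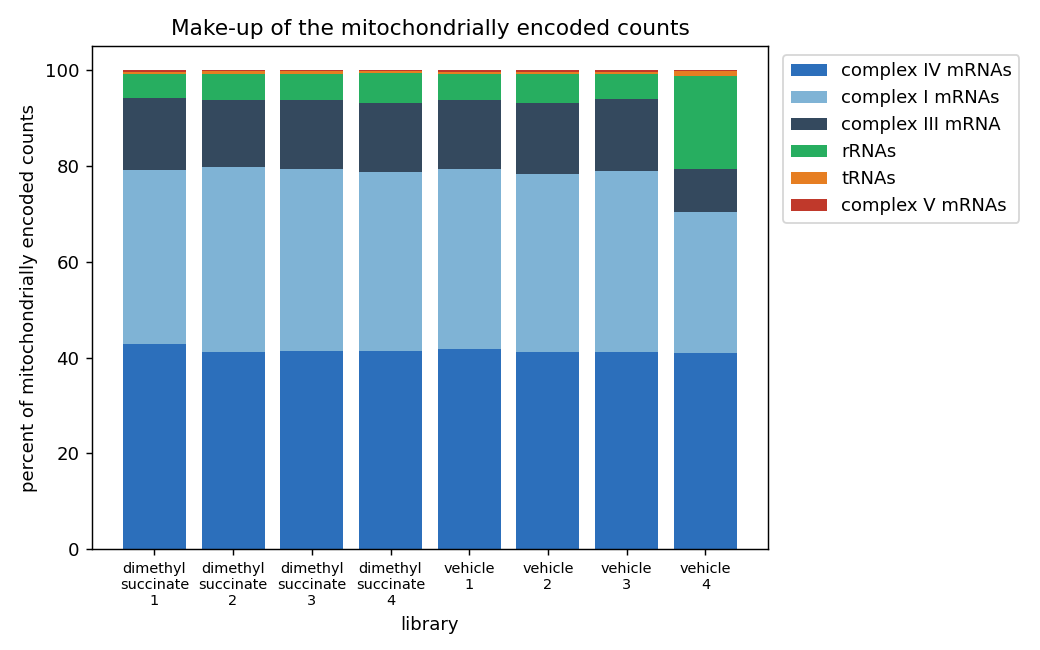
Percent of the mitochondrially encoded counts in each library that fell to the mRNAs of each respiratory complex, the rRNAs and the tRNAs, with the 4 dimethyl succinate libraries left of the 4 vehicle libraries. The rRNA share is 19.3% in vehicle replicate 4 and 4.99% to 6.31% in the other 7 libraries.

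By gene, the CPM of vehicle replicate 4 divided by the mean of vehicle replicates 1 to 3 ran from 0.0659 to 2.52. Among the 8911 genes of at least 10 CPM in the other 7 libraries, 1.19% stood at or below 0.5, which was 106 genes. Of the 15 mitochondrial genes above that level 12 were among the 106, and none of the 15 stood at 2 times or more, against 0.213% of the 8911. The lowest were mt-Atp6 at 0.0659, mt-Nd2 at 0.0766 and mt-Nd4 at 0.0913. The other mRNAs of the 12 tested stood at 0.112 to 0.579, the highest being mt-Nd4l at 0.336 and mt-Nd3 at 0.579. The rRNAs stood at 0.566 for mt-Rnr1 and 0.652 for mt-Rnr2. Vehicle replicate 4 was below all 7 other libraries for 20 of the 27 tested mitochondrial genes, against 29.4% of all genes tested. In that library mt-Ty had no count, which set against a floor of 3 counts is at least 4.69-fold lower than the other vehicle libraries.

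In vehicle replicate 4, 5 of the 13 tested tRNA genes stood above the other vehicle libraries. The histidine tRNA mt-Th, the serine tRNA mt-Ts2 and the leucine tRNA mt-Tl2 lie side by side between mt-Nd4 and mt-Nd5, and these neighbours stood at 1.54, 2.52 and 2.09 times the other vehicle libraries. mt-Tr and mt-Tg, which lie on either side of mt-Nd3, stood at 1.78 and 1.32 times, with 22 counts each in vehicle replicate 4. The other 8 tested tRNA genes stood below 1, on the heavy strand mt-Tl1 at 0.286, mt-Tw at 0.198 and mt-Tt at 0.606. Of the tested genes under 10 CPM in the other 7 libraries, to which these 5 belong, 3.02% stood at 2 times or more, as mt-Ts2 and mt-Tl2 did. The sequences of mt-Th, mt-Ts2 and mt-Tl2 are shown with the anticodon in capitals, in DNA letters from the GENCODE transcripts of GRCm38. mt-Th is chrM:11546-11612, mt-Ts2 is chrM:11613-11671 and mt-Tl2 is chrM:11671-11741, all on the plus strand.
mt-Th: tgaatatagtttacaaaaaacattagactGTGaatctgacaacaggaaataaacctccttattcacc
mt-Ts2: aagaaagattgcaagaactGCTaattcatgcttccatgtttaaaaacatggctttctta
mt-Tl2: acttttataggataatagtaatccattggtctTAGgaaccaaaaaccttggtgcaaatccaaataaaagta
mt-Te and mt-Tp are shown as tRNA genes that were low in vehicle replicate 4, at 0.0752 and 0.113. They are chrM:14071-14139 and chrM:15356-15422 on the minus strand, printed 5′ to 3′ as transcribed.
mt-Te: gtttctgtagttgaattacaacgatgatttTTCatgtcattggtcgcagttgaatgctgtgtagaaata
mt-Tp: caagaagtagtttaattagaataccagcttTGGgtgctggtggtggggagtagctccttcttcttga

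mt-Tl2 had 74, 110, 87 and 84 counts in dimethyl succinate replicates 1 to 4, against 87, 92, 81 and 181 counts in vehicle replicates 1 to 4. mt-Ts2 had 14, 45, 37 and 22 counts in dimethyl succinate replicates 1 to 4, against 25, 30, 15 and 58 counts in vehicle replicates 1 to 4. mt-Th had 16, 38, 49 and 29 counts in dimethyl succinate replicates 1 to 4, against 36, 20, 18 and 38 counts in vehicle replicates 1 to 4. Vehicle replicate 4 was the highest library for mt-Tl2 and mt-Ts2 and inside the range of the others for mt-Th. Together these neighbours made up 61.0% of the mitochondrial tRNA counts of vehicle replicate 4, which was 277 of 454 counts, and 12.7% to 19.3% in the other 7 libraries. Set against the gene that follows them, they had 67.7 counts per 1000 counts of mt-Nd5 in vehicle replicate 4 and 5.68 to 7.43 in the other 7 libraries. The log2 fold change of mt-Tl2 was -0.46 (SE 0.24) with all libraries and -0.11 (SE 0.15) without vehicle replicate 4.

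**Figure D4:**
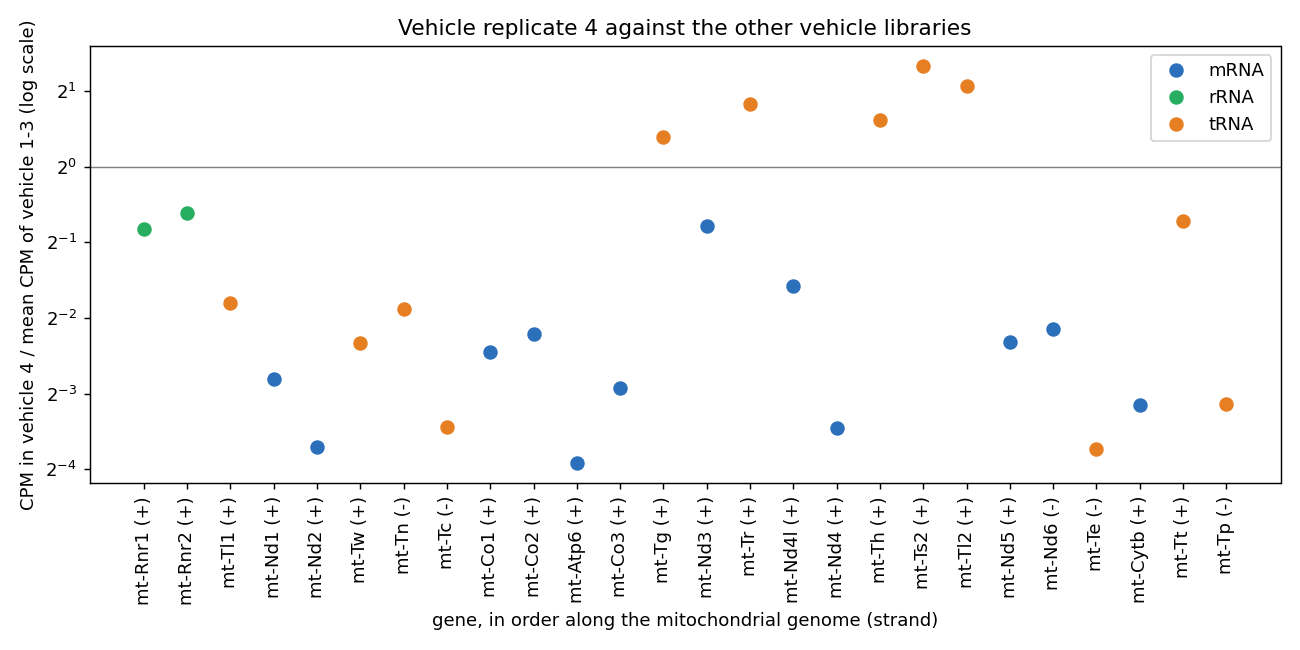
CPM in vehicle replicate 4 divided by the mean CPM of vehicle replicates 1 to 3 (log scale) for 26 tested mitochondrial genes, in order along the mitochondrial genome with the strand in brackets. mt-Ty, with no count in vehicle replicate 4, is not drawn, and mt-Th, mt-Ts2 and mt-Tl2 at 1.54 to 2.52 stand between mt-Nd4 at 0.0913 and mt-Nd5 at 0.200.

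Mitochondrial mRNAs differed widely in level per length, and 5 of the 6 lowest had near-identical annotated copies in the nuclear genome. By the authors' FPKM, averaged over the 7 libraries other than vehicle replicate 4, mt-Co1 stood at 3524, mt-Cytb at 1699, mt-Nd1 at 1655, mt-Nd2 at 839, mt-Nd5 at 753, mt-Nd4 at 625 and mt-Nd6 at 586. After these came mt-Co2 at 85.6, mt-Atp6 at 61.9, mt-Co3 at 56.7, mt-Nd3 at 54.9, mt-Nd4l at 17.4 and mt-Atp8 at 1.87 FPKM. mt-Cytb and mt-Nd1 differed by less than their spread, at 1625 ± 141 and 1603 ± 129.7 FPKM in the dimethyl succinate libraries (SD, n = 4). There mt-Atp6, mt-Co3 and mt-Nd3 also differed by less than their spread, at 54.0 ± 11.8, 51.1 ± 5.11 and 49.6 ± 13.6 FPKM. Each mRNA was searched for windows of 50 bases that also occur in annotated transcripts of other genes. Nuclear sequence outside annotated transcripts was not searched, so copies there, of mt-Atp8 for example, would be missed. Such windows made up 98.0% to 100% of mt-Co2, mt-Co3, mt-Atp6, mt-Nd4l and mt-Nd3, 62.2% of mt-Nd4, 51.1% of mt-Co1, 8.19% of mt-Nd2, 7.61% of mt-Nd5 and none of mt-Nd1, mt-Nd6, mt-Cytb and mt-Atp8.

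**Figure D5:**
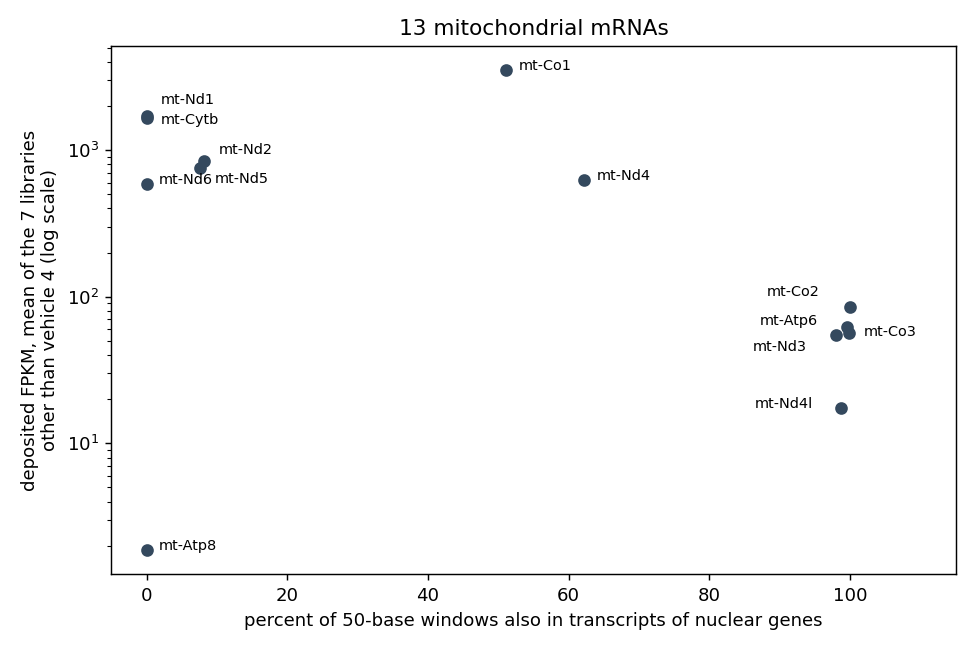
The authors' FPKM of the 13 mitochondrial mRNAs (mean of the 7 libraries other than vehicle replicate 4, log scale) against the percent of each transcript's 50-base windows that also occur in annotated transcripts of nuclear genes. Nuclear sequence outside annotated transcripts was not searched. The 5 mRNAs with 98.0% or more shared windows lie between 17.4 and 85.6 FPKM, and the other mRNAs except mt-Atp8 lie at 586 FPKM or above.

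The copies are 7 unprocessed pseudogenes in a row on chromosome 1 (GRCm38, chr1:24611535-24616197, minus strand): Gm28439, Gm10222, Gm28438, Gm28437, Gm10925, Gm28661 and Gm29216. They match mt-Nd4, mt-Nd4l, mt-Nd3, mt-Co3, mt-Atp6, mt-Co2 and mt-Co1 in that order. Over 294 to 876 aligned bases 5 of the 7 had 0 differences from their mitochondrial gene. The first 60 bases of mt-Co2, chrM:7013-7072, are the same in Gm28661 and are shown as a stretch from which a read cannot be assigned to either gene.
mt-Co2 and Gm28661: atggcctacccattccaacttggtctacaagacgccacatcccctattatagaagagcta
The other two differed near an end. Counting from 1 at the 5′ end of the mitochondrial transcript, Gm28438 carried T3C against mt-Nd3, and Gm29216 carried T1056A, C1057T, A1059G, A1060G, C1062A and A1066T against mt-Co1. The first differing base of each pair is in capitals, in chrM:9459-9481, chr1:24613097-24613119, chrM:6381-6403 and chr1:24616175-24616197.
mt-Nd3: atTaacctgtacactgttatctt
Gm28438: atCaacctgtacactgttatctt
mt-Co1: ggTctaaccggaattgttttatc
Gm29216: ggAttggcaggatttgttttatc

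Counts were listed for both members of each pair, so the tables divide them in some way that is not given in the sources used here. Over all libraries the pseudogene took 56.9% of the counts of its pair for mt-Atp6, 49.96% for mt-Nd4l, 44.5% for mt-Co3, 41.0% for mt-Co2, 13.7% for mt-Nd3, 2.81% for mt-Nd4 and 0.458% for mt-Co1. In vehicle replicate 4 the 7 pseudogenes were low as well, with counts over the library total at 0.0566 to 0.461 of the mean of the other vehicle libraries. The values of mt-Co2, mt-Co3, mt-Atp6, mt-Nd4l and mt-Nd3 are therefore uncertain. The same holds in part for mt-Nd4 and mt-Co1, with 62.2% and 51.1% of their windows shared. mt-Atp8 and the tRNA genes that lie among these genes had no shared window in annotated transcripts. The sequence between the pseudogenes was not searched, so whether reads of mt-Atp8 and these tRNA genes are shared was not tested. When the counts of each pair were summed, 0 genes were called, and without vehicle replicate 4 the log2 fold change was -0.27 (SE 0.10, unadjusted p = 0.0173, adjusted p = 0.455 by edgeR) for mt-Co3 with Gm28437. It was -0.40 for both mt-Atp6 and mt-Co2 with their copies and -0.46 for mt-Nd4l with its copy, none of which passed the test.

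No nuclear gene of those that maintain, transcribe and process the mitochondrial genome and its RNA was called with dimethyl succinate. Of 56 such genes listed, 55 were found and tested, and 0 were called by edgeR in either direction or reached an unadjusted p under 0.05. DESeq2 called 0 of them as well. Their log2 fold changes had a median of -0.04. Leaving out vehicle replicate 4 gave -0.01, with 2 of the 55 genes higher and 0 genes lower at an unadjusted p under 0.05, against 8.54% of all genes in either direction. Polrmt, the mitochondrial RNA polymerase, averaged 67.6 ± 6.38 CPM in dimethyl succinate libraries and 62.4 ± 7.55 CPM in vehicle libraries (SD, n = 4 each). Its log2 fold change with all libraries was 0.11 (SE 0.09, unadjusted p = 0.247 by edgeR). Without vehicle replicate 4 the vehicle mean was 59.3 ± 5.08 CPM. In that fit Polrmt was one of those 2, at a log2 fold change of 0.19 (SE 0.07, unadjusted p = 0.0153 by edgeR). The other was Lig3, a DNA ligase gene, named after its values were seen. Tfam, which packages mitochondrial DNA and starts transcription, averaged 59.9 ± 2.57 CPM in dimethyl succinate libraries and 69.9 ± 18.2 CPM in vehicle libraries, with 1.59 times the other vehicle libraries in vehicle replicate 4. Lrpprc, which with Slirp stabilises mitochondrial mRNAs, averaged 137 ± 6.24 CPM in dimethyl succinate libraries and 149 ± 28.2 CPM in vehicle libraries, with 1.42 times the other vehicle libraries in vehicle replicate 4. Log2 fold changes were -0.12 for the single-stranded DNA-binding protein gene Ssbp1, -0.06 for the elongation factor gene Tefm and 0.16 for Slirp, which was counted at about 1 CPM. For Tefm, Lrpprc and Slirp the sign changed without vehicle replicate 4, to 0.05, 0.03 and -0.11.

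None of the nuclear partners of the mitochondrial subunits was called either. Of 73 nuclear genes for subunits of complexes I, III, IV and V, 0 were called, and at an unadjusted p under 0.05 there was 1 higher gene and 1 lower gene, against 5.76% of all genes in either direction. Without vehicle replicate 4 there were 0 higher genes and 1 lower gene, against 8.54% of all genes in either direction. The log2 fold changes centred on a median of -0.05, and on -0.02 in the fit that leaves out vehicle replicate 4. With all libraries Ndufa12 was the higher one, at 15.1, 14.4, 33.6 and 34.2 CPM in dimethyl succinate replicates 1 to 4. Vehicle replicates 1 to 3 had 14.2 to 15.1 CPM and vehicle replicate 4 had 11.9 CPM, so only dimethyl succinate replicates 3 and 4 stood well above. Without vehicle replicate 4 its log2 fold change was 0.73 (SE 0.42, unadjusted p = 0.139 by edgeR). Ndufb5 was the lower one, at 40.2 ± 2.85 CPM in dimethyl succinate libraries and 46.3 ± 3.87 CPM in vehicle libraries (SD, n = 4 each). Its log2 fold change was -0.18 (SE 0.08, unadjusted p = 0.0314 by edgeR) without vehicle replicate 4. Both encode complex I subunits, and neither passed the test, at an edgeR adjusted p of 0.802 for each in the fit of all libraries. The 22 genes for mitochondrial aminoacyl-tRNA synthetases and related enzymes, which charge the tRNAs, had 11 above 0 and none at an unadjusted p under 0.05. Without vehicle replicate 4, 13 of them were above 0, again with none at an unadjusted p under 0.05. Among 11 tested genes of the mitochondrial stress response, 2 had log2 fold changes above 0 and none was called. The median was -0.11 in the fit of all libraries and -0.03 in the fit that leaves out vehicle replicate 4.

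In vehicle replicate 4 these nuclear genes were not low as the mitochondrial ones were. The ratio to the other vehicle libraries had a median of 1.04 over the 47 mitochondrial maintenance and RNA genes of at least 10 CPM, with a range of 0.730 to 1.59. Its median was 1.13 over the tRNA synthetase genes and 1.11 over 72 respiratory subunit genes, of which 3 stood at or below 0.5: Atp5g2 at 0.241, Cox7a2 at 0.267 and Ndufb4 at 0.441. By contrast the median over the 12 tested mitochondrial mRNAs was 0.162. The nuclear-retained RNAs Malat1, Neat1 and Kcnq1ot1 stood at 1.07 to 1.44. The summed T cell markers were also lower in vehicle replicate 4, as given above, but not all of them were. Cd4, Cd3e, Cd3g, Trac, Cd5 and Cd28 stood at 0.688 to 0.817 of the other vehicle libraries. Cd3d was higher, at 207 CPM against 159 to 185 CPM in the 7 other libraries. The part of cell make-up, RNA quality and library preparation in the mitochondrial values of vehicle replicate 4 was not tested.

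Genes whose level followed the mitochondrial mRNAs most closely were sought by the Pearson correlation of log2 CPM with the mean log2 CPM of the 13 mRNAs, among 8898 other genes of at least 10 CPM. Over all 8 libraries the highest were Gpr171 at 0.997, Zfp207 at 0.995, Vezf1 at 0.994, and Dym and Atf7 at 0.993 each. These correlations share the low point of vehicle replicate 4, where these 5 genes stood at 0.404 to 0.616 of the other vehicle libraries. Over the 7 other libraries the highest were Kat2b at 0.987, Tug1 and Kdm6a at 0.979, and Snap23 and Mef2a at 0.971. No gene was in both sets of 5, and the points share library depth and scaling.

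A p-value was given in the authors' deposited table for 35 of the 37 genes, and 0 had an adjusted p under 0.05. The lowest adjusted p in the authors' deposited table was 0.848, for mt-Rnr1, and the lowest p was 0.0671, for mt-Tl2. For 21 of the 35 genes, mt-Tl2 among them, the deposited adjusted p was at its upper limit and can stand for a missing value.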

How the data were processed

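Reads were aligned with HISAT2 2.0.5, per the submitters' processing notes. Neither the counting tool nor the annotation, build or use of strand is given in the sources used here. Per the file headers, the authors deposited raw counts per gene and library, FPKM values, group means named a normalised signal here, and their own log2 fold changes and p-values. The gene lengths in base pairs were also deposited. The headers call the vehicle group DMSO.

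From the counts, edgeR 4.0.16 in R 4.3.3 kept genes by filterByExpr, scaled libraries by TMM and fitted all 8 libraries, 4 against 4, with no covariate. Its quasi-likelihood test with robust dispersions was two-sided, with Benjamini-Hochberg adjustment over all genes tested at 0.05. The procedure was tested on simulated data. Intervals cover 95%, and a library with 0 counts is set at a floor of 3 counts. The fit was repeated without vehicle replicate 4, and with DESeq2 1.42.0, limma 3.58.1 and other settings. Shared windows of 50 bases were found in GENCODE transcripts with Python 3.11.15. Summing nuclear copies was chosen after the data were seen.

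The mitochondrial genes and the lists of nuclear genes were chosen with earlier results of these data known. All mRNAs, rRNAs and tested tRNA genes are named with values. Of each list, members with the smallest p, up to 4, could be named, besides Tfam, Polrmt, Tefm, Lrpprc, Slirp and Ssbp1, and so could the 5 genes most like the mRNAs in each set of libraries. Ratios of vehicle replicate 4, its nuclear genes at or below 0.5 and the mt-Rnr2 to mt-Rnr1 ratio were chosen after their values were seen.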

Additional observations from a re-analysis of the deposited data

Results flagged for a closer look

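Each group of 4 libraries was searched for a library that stands apart from the other 3 by Dixon's test, for the 27 tested genes and for shares of the mitochondrial counts. Of 60 such groups 14 had one, and 10 of the 14 were vehicle replicate 4. The groups share libraries and the genes share precursors, so these tests are not independent. The rate of about 1 in 20 that holds for 1 test therefore cannot show whether 14 is more than chance gives. By CPM vehicle replicate 4 was low at 84.4 for mt-Rnr1, 413 for mt-Rnr2, 236 for mt-Nd1, 70.0 for mt-Nd2, 13.7 for mt-Co2 and 232 for mt-Cytb, and high at 12.6 for mt-Tl2. Its mitochondrial share of counts was low at 0.252%, and the rRNA and tRNA shares of its mitochondrial counts were high at 19.3% and 1.22%. Of the rest, dimethyl succinate replicate 4 was low for mt-Tl1 at 7.27 CPM and for mt-Atp6 at 24.9 CPM, dimethyl succinate replicate 1 was low for mt-Tn at 1.36 CPM, and vehicle replicate 3 was high for mt-Tt at 2.16 CPM. These values are given with no explanation.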

How the results depend on the processing

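No alternative called a mitochondrial gene or a gene of the mitochondrial maintenance and RNA list. The count called over all genes was 26 with limma-voom and library quality weights, 6 without the low-count filter, 1 with a replicate block, and 0 to 28 with one library left out. Mitochondrial genes at an unadjusted p under 0.05 numbered 1 without the low-count filter and 0 to 3 with one library left out (1 without vehicle replicate 2 or 3, 3 without vehicle replicate 4). Deviations of same-numbered libraries correlated at -0.014, 0.0112, 0.0557 and 0.13 for replicates 1 to 4. Such values cannot show whether libraries of the same number were paired. Replicate 4 alone correlated best with its own number. RLE or upper-quartile factors, library totals alone and totals without mitochondrial counts turned no sign among the 27 genes. Signs turned as follows: under the block, mt-Atp6 to 0.26; with copies summed, mt-Co2 to -0.079; with limma-voom, mt-Tw to 0.11, mt-Tn to 0.024, mt-Atp6 to 0.53 and mt-Nd4l to 0.021; with quality weights, mt-Tl1 to -0.11, mt-Co2 to -0.055, mt-Co3 to -0.21, mt-Ts2 to 0.27, mt-Nd6 to -0.0071, mt-Cytb to -0.0047, Tefm to 0.093 and Lrpprc to 0.023. With one library left out, signs turned for 15 of the 27 genes without vehicle replicate 4 and for at most 7 without any other. The ranges were -0.17 to 0.031 for Lrpprc, -0.42 to 0.20 for mt-Atp6, -0.10 to 0.40 for mt-Co1, -0.18 to 0.29 for mt-Co2, -0.33 to 0.26 for mt-Co3, -0.14 to 0.41 for mt-Cytb, -0.10 to 0.42 for mt-Nd1, -0.11 to 0.46 for mt-Nd2, -0.31 to 0.0067 for mt-Nd3, -0.17 to 0.41 for mt-Nd4, -0.37 to 0.15 for mt-Nd4l, -0.076 to 0.42 for mt-Nd5, -0.15 to 0.32 for mt-Nd6, -0.0082 to 0.23 for mt-Rnr1, -0.15 to 0.054 for mt-Rnr2, -0.17 to 0.58 for mt-Tc, -0.15 to 0.29 for mt-Th, -0.17 to 0.28 for mt-Tl1, -0.38 to 0.11 for mt-Tn, -0.14 to 0.48 for mt-Tp, -0.23 to 0.53 for mt-Tr, -0.51 to 0.20 for mt-Ts2, -0.42 to 0.25 for mt-Tt, -0.50 to 0.26 for mt-Tw, -0.17 to 0.90 for mt-Ty, -0.11 to 0.74 for Slirp, -0.16 to 0.053 for Tefm. The mitochondrial share difference ran from -0.101 to 0.307 percentage points. The causes were not tested. Genes under about 1 CPM are limited by counting error.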
